A study of Mus musculus with 6 samples.

Results

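The genes described here are 9 serotonin receptor genes, Htr1a, Htr1b, Htr2a, Htr3a, Htr4, Htr5a, Htr5b, Htr6 and Htr7, out of 22180 genes measured in mouse hippocampus. They were taken as a named list of receptor genes, each read by the brightest probe set that the platform annotation pairs with that symbol alone. Htr2c was kept out of the list because choroid plexus epithelium expresses it strongly. The study compared hippocampi of 3 Ahr-KO mice, labelled as knockouts of Ahr, the gene of a transcription factor that ligands switch on, with hippocampi of 3 wild-type mice, on 1 whole-transcript array per mouse. The title of the series names memory, neurogenesis, granule cell shape and synaptic maturation as its subject. The sources used here give no allele, strain, age or sex of the mice and name no treatment for either genotype. Each array carries RNA of a whole dissected hippocampus, in which fewer cells of a type and less RNA per cell cannot be told apart.

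Serotonin reaches the hippocampus through axons of raphe neurons, whose cell bodies lie in the brainstem, so the receptors are made by the hippocampal cells while the enzymes and the transporter of serotonin neurons are not. All the receptors on the list signal through G proteins except the Htr3a product, which is a subunit of a cation channel opened by serotonin. Receptors of the first family lower cyclic AMP through inhibitory G proteins, Htr2a acts through the phospholipase C pathway, and Htr4, Htr6 and Htr7 raise cyclic AMP.

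No serotonin receptor gene differed between Ahr-KO and wild-type hippocampi past the threshold. Of the 9 genes, 0 passed at an adjusted p under 0.05 in the limma fit across all genes, where 0% of the genes tested were called. At an unadjusted p under 0.05 the count was also 0 of 9, beside 6.18% of all genes (3.53% higher and 2.65% lower in Ahr-KO). The Ahr-KO and wild-type arrays overlapped for each of the 9 receptors, whereas they did not overlap for 11.9% of all genes (6.18% higher and 5.75% lower in Ahr-KO). The mean was higher in Ahr-KO for 4 receptors and lower for 5, beside 50.7% and 49.3% of all genes. The median difference of the 9 receptors, Ahr-KO minus wild type, was -0.033 log2, and that of all genes 0.0019.

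The intervals give a range of differences for each gene taken singly, with limma's variance, which draws partly on the spread of all genes. All 95% intervals of the 9 differences included 0, and none reached beyond -0.46 log2 at the low end (Htr2a) or 0.45 at the high end (Htr4). They are intervals for single genes, on a log2 signal scale on which this kind of array summary tends to make differences smaller. They do not say how large a difference would pass across all genes. Ahr itself read 6.62, 6.91 and 6.74 log2 on the Ahr-KO arrays, against 7.68, 7.50 and 7.44 on the wild-type arrays, without overlap (limma adjusted p = 0.320). Its difference of -0.78 log2, larger in size than those bounds, did not pass either. The sources used here do not say which part of the gene that probe set reads.

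**Figure D1:**
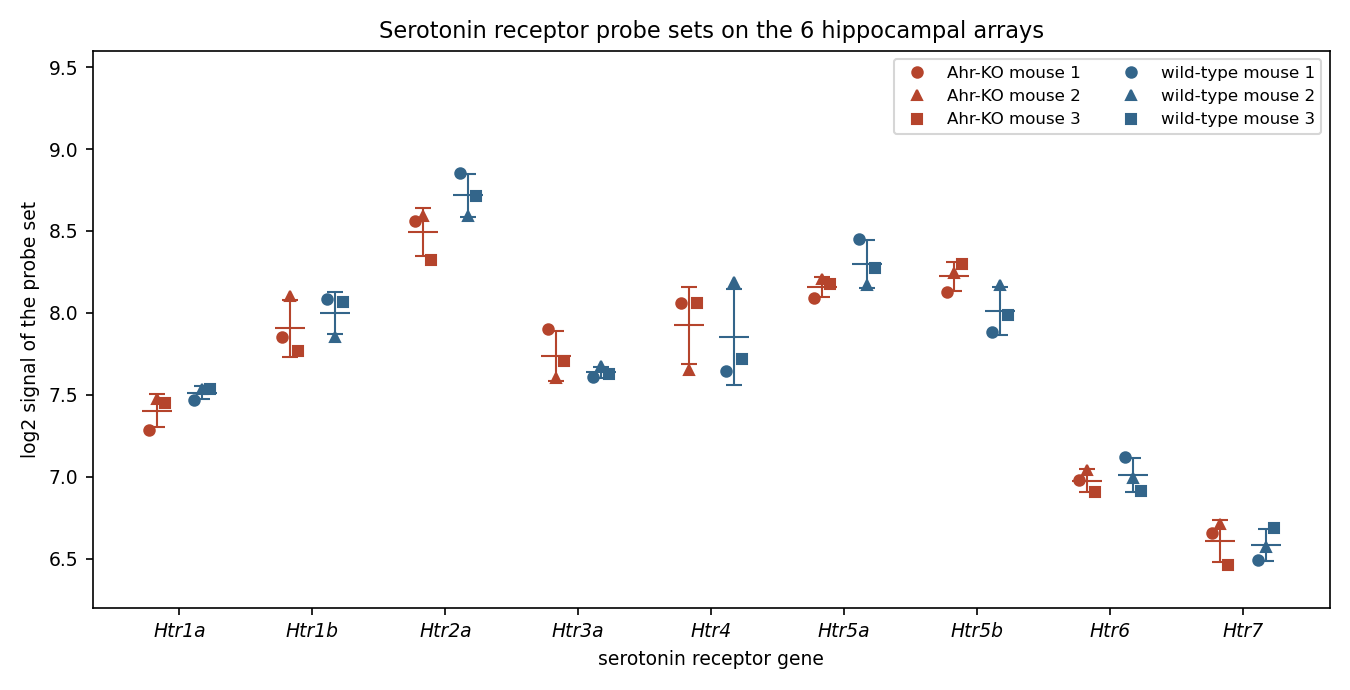
Log2 signal of the probe set of each serotonin receptor gene on each array, Ahr-KO (red, left) and wild type (blue, right); the symbol shape is the mouse number, the long bar is the mean and the whiskers are 1 SD (n = 3 each). The genotypes overlap for all 9 genes, and Htr4 has the widest spread within both; heights of different genes come from different probes and are not comparable.

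Since the study removed a transcription factor, the promoters of the receptors were searched for the core of its binding site, GCGTG, on both strands. The RefSeq promoter table of assembly GRCm38.p6 held windows for 6 of the 9 genes, each from 250 bases before to 50 after a gene start, and 7 windows in all. The core was found in 3 of the 7 windows, belonging to Htr5a, Htr6 and Htr7, and in 32.4% of the 32851 windows of all genes. The longer form TGCGTG, which contains the core, was in 1 of the 7 (Htr5a) and in 8.47% of all windows. The window of Htr5a lies at chr5:27841697-27841996 on the plus strand and holds 2 core matches. The window of Htr2a, at chr14:74640624-74640923 on the plus strand, holds 0. Htr5a is shown because it alone holds the longer form, and Htr2a because it had the largest difference between genotypes among the receptors with a window. Capitals mark the core, and a match in letters is not evidence of binding.
Htr5a: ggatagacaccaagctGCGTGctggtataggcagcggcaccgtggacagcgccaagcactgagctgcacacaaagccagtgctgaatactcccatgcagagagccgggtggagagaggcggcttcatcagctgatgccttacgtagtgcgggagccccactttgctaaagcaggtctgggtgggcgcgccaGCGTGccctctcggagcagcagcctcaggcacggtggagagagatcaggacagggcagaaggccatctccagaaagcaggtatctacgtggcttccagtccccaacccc
Htr2a: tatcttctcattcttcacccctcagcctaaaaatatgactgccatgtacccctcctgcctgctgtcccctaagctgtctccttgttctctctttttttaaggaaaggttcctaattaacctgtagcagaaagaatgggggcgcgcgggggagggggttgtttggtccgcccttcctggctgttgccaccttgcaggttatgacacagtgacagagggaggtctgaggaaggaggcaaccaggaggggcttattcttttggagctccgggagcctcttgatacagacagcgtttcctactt

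Htr1a, Htr1b and Htr5a, whose products couple to inhibitory G proteins, had lower means in Ahr-KO, with overlapping arrays. Htr1a, which silences pyramidal and granule neurons and is also the autoreceptor of raphe cell bodies, read 7.29, 7.48 and 7.45 log2 in Ahr-KO mice, against 7.47, 7.53 and 7.54 in wild-type mice. Ahr-KO mouse 1 was the lowest of the 6, and Ahr-KO mouse 2 lay within the wild-type range. The difference was -0.11 ± 0.08 (SE; 95% interval -0.29 to 0.07; limma adjusted p = 0.855). Without the array of Ahr-KO mouse 1 it was -0.049.

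Htr1b, a receptor of axon terminals that limits transmitter release, read 7.85, 8.10 and 7.77 in Ahr-KO and 8.08, 7.85 and 8.06 in wild type. Its highest and its lowest array were both Ahr-KO, and the difference was -0.09 ± 0.11 (SE; limma adjusted p = 0.915). Without Ahr-KO mouse 3 it was -0.023, and without Ahr-KO mouse 2 it was -0.19. A second probe set is annotated to both Htr1b and D430036J16Rik and therefore did not enter the test. It averaged 7.26 ± 0.10 in Ahr-KO and 7.46 ± 0.31 in wild type (SD, n = 3 each), and wild-type mouse 2 had its lowest reading, 7.10.

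The related genes Htr5a and Htr5b had means that differed between genotypes in opposite directions. Htr5a read 8.09, 8.21 and 8.18 in Ahr-KO and 8.45, 8.17 and 8.28 in wild type, with wild-type mouse 1 the highest and wild-type mouse 2 inside the Ahr-KO range. The difference was -0.14 ± 0.09 (SE; 95% interval -0.35 to 0.07; limma adjusted p = 0.841), and it was -0.064 without wild-type mouse 1. Htr5b, whose human counterpart does not encode a functional receptor, read 8.13, 8.25 and 8.30 in Ahr-KO and 7.88, 8.17 and 7.99 in wild type. Wild-type mouse 2 read above Ahr-KO mouse 1, and the other 2 wild-type arrays lay below all Ahr-KO arrays. The difference of Htr5b was 0.21 ± 0.10 (SE; 95% interval -0.01 to 0.43; limma unadjusted p = 0.0561, adjusted p = 0.810), the lowest p among the 9 receptors and rank 1529 among all genes.

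Htr2a, the receptor through which serotonin excites pyramidal neurons and some interneurons, had the largest difference of the list in size. It read 8.56, 8.59 and 8.32 log2 in Ahr-KO and 8.85, 8.59 and 8.71 in wild type. The groups met at 8.59, where Ahr-KO mouse 2 and wild-type mouse 2 stood, and Ahr-KO mouse 3 was well below the others. The mean was 8.49 ± 0.15 in Ahr-KO and 8.72 ± 0.13 in wild type (SD, n = 3 each), a 1.17-fold lower level in Ahr-KO. The difference of -0.23 ± 0.10 (SE; 95% interval -0.46 to 0.01) did not pass (limma unadjusted p = 0.0573, adjusted p = 0.811). It was -0.14 without Ahr-KO mouse 3 and -0.16 without wild-type mouse 1.

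Htr3a, the channel subunit that marks a class of inhibitory interneurons, read 7.90, 7.61 and 7.71 in Ahr-KO and 7.61, 7.68 and 7.63 in wild type. The wild-type arrays were tightly grouped, with Ahr-KO mice 1 and 3 above them and Ahr-KO mouse 2 just below. The difference was 0.10 ± 0.09 (SE; 95% interval -0.11 to 0.31; limma adjusted p = 0.886), and it was 0.017 without Ahr-KO mouse 1. Of 16 measured genes of such interneurons, 0 had an unadjusted p under 0.05, beside 6.18% of all genes. A higher mean in Ahr-KO was seen for 8 and a lower mean for 8, beside 50.7% and 49.3% of all genes. The median difference was -0.0095 log2. Those with the lowest p were Reln, an extracellular glycoprotein (-0.30 ± 0.13, SE), the peptide gene Vip (-0.40 ± 0.17), the calcium buffer gene Calb2 (0.31 ± 0.15) and Adarb2, an RNA-binding protein (0.20 ± 0.10). Without Ahr-KO mouse 1 Calb2 differed by 0.18, Adarb2 by 0.11 and Vip by -0.29. Without Ahr-KO mouse 2 Calb2 differed by 0.44, Adarb2 by 0.29 and Vip by -0.60. Reln differed by -0.23 without wild-type mouse 1 and by -0.46 without wild-type mouse 2. The score of the list, the average of its genes' log2 deviations from their own 6-array means, was 0.0065, 0.032 and -0.096 in Ahr-KO mice 1, 2 and 3, and 0.046, -0.020 and 0.031 in wild-type mice 1, 2 and 3. Htr3a and the list therefore did not order the arrays alike.

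Among the receptors that raise cyclic AMP, Htr4 varied most between mice of the same genotype. Htr4, which makes principal neurons more excitable, read 8.06, 7.65 and 8.06 log2 in Ahr-KO mice 1, 2 and 3, and 7.65, 8.19 and 7.72 in wild-type mice 1, 2 and 3. The highest and the lowest array were both wild type, and the readings lay either between 8.06 and 8.19 or between 7.65 and 7.72. Its SD within genotypes was 0.266 log2, larger than in 95.4% of all genes, whose median was 0.114. The SD of the other 8 receptors lay between 0.0779 (Htr1a) and 0.153 (Htr1b). The difference of Htr4 between genotypes was 0.07 ± 0.16 (SE; 95% interval -0.30 to 0.45; limma adjusted p = 0.964), and its direction turned without wild-type mouse 1 (-0.030).

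Htr6, a receptor best known from striatum and also made in hippocampus, read 6.98, 7.04 and 6.91 in Ahr-KO and 7.12, 6.99 and 6.91 in wild type. The readings were intermingled, with a difference of -0.03 ± 0.08 (SE; limma adjusted p = 0.969). Htr7, known in hippocampus chiefly from CA3 neurons, read 6.65, 6.71 and 6.46 in Ahr-KO and 6.49, 6.57 and 6.69 in wild type, a difference of 0.03 ± 0.09 (SE; limma adjusted p = 0.983). Htr7 was above the median gene of its array on 4 of 6 arrays, and the other 8 receptors were above it on all 6. The direction of Htr6 turned without wild-type mouse 1 (0.023) and without Ahr-KO mouse 3 (0.0023). That of Htr7 turned without Ahr-KO mouse 2 (-0.025) and without wild-type mouse 1 (-0.021).

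**Figure D2:**
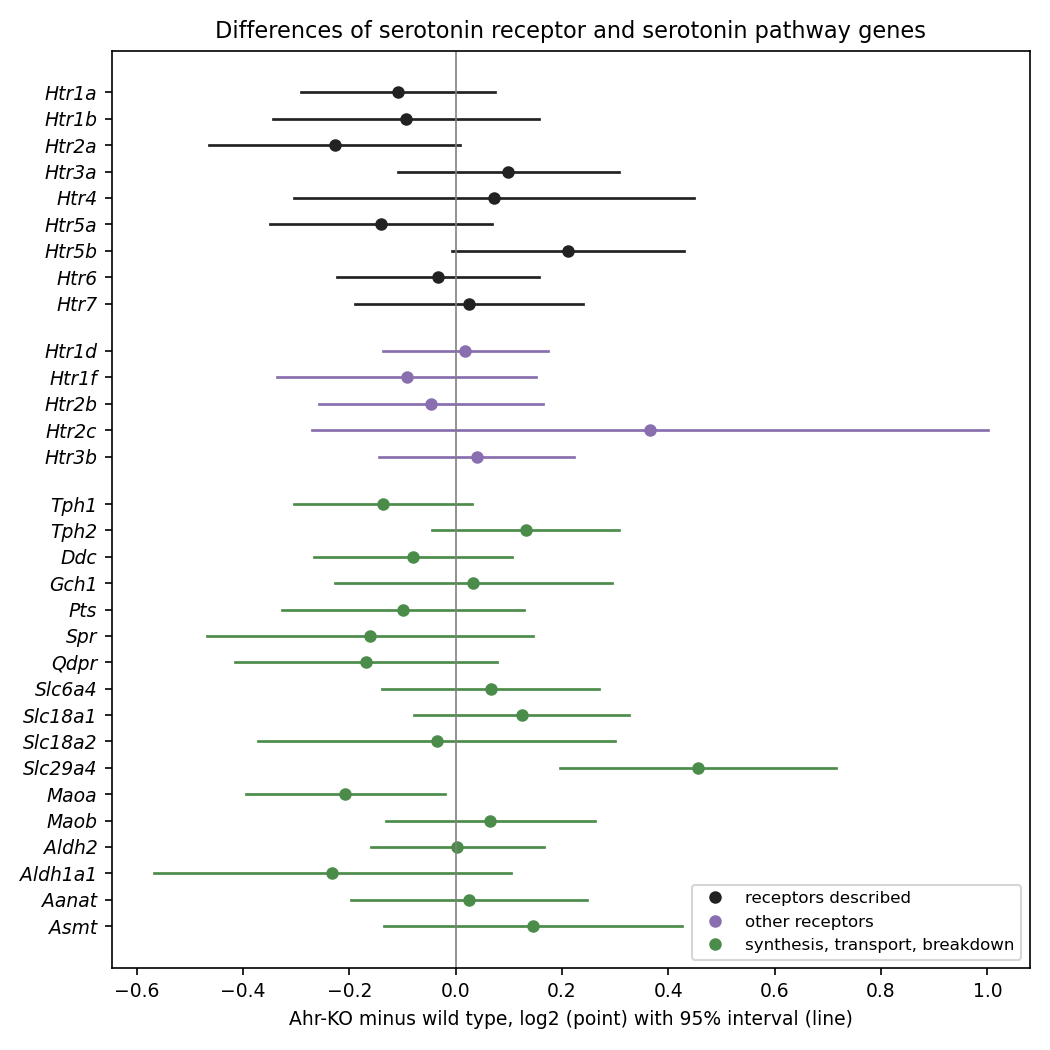
Difference in log2 signal, Ahr-KO minus wild type (points), with limma's 95% interval (lines), for the 9 serotonin receptors, 5 other serotonin receptor genes and 17 genes of serotonin synthesis, transport and breakdown. Intervals of all receptors include 0, that of Htr2c is the widest, and those of Slc29a4 and Maoa lie on opposite sides of 0, although neither gene passed across all genes.

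Choroid plexus genes stood higher on Ahr-KO mouse 1 and wild-type mouse 2, where 14 of 15 measured genes had their 2 highest readings, the exception being Col8a1. Ttr, the transthyretin of that epithelium, read 13.15, 9.06 and 8.64 log2 in Ahr-KO mice 1, 2 and 3, and 8.90, 12.64 and 9.03 in wild-type mice 1, 2 and 3. The score over the 15 genes was 1.07 on Ahr-KO mouse 1 and 0.57 on wild-type mouse 2, and between -0.43 and -0.38 on the other 4. Without those 2 arrays 0 of 22180 genes passed with limma and 1342 had an unadjusted p under 0.05. The differences were then -0.039 for Htr1a, -0.14 for Htr1b, -0.17 for Htr5a, 0.34 for Htr5b, -0.32 for Htr2a, 0.035 for Htr3a, 0.17 for Htr4, -0.043 for Htr6 and -0.0034 for Htr7. Htr5b and Htr2a were thus larger in size without these arrays, and had limma unadjusted p = 0.0120 and 0.0367 with adjusted p = 0.769 and 0.801. Those fits compare 2 mice with 2.

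Of the other serotonin receptor genes, Htr1d, Htr1f, Htr2b and Htr3b were below the median gene on all 6 arrays, with differences of 0.018, -0.092, -0.046 and 0.039 log2. Htr2c, the receptor of choroid plexus and of some neurons, read 10.04, 8.93 and 9.45 in Ahr-KO mice 1, 2 and 3, and 8.77, 9.52 and 9.03 in wild-type mice 1, 2 and 3. Its highest readings in each genotype were on the arrays with high Ttr. Its difference was 0.37 ± 0.28 (SE; 95% interval -0.27 to 1.00; limma adjusted p = 0.861), and 0.29 without those arrays. With the choroid plexus mean as a covariate it was 0.27. Single arrays moved it further, to 0.081 without Ahr-KO mouse 1 and 0.64 without Ahr-KO mouse 2. Of these 5 genes 0 had an unadjusted p under 0.05, beside 6.18% of all genes, and their median difference was 0.018.

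Genes of serotonin synthesis, transport and breakdown included 1 higher and 1 lower at an unadjusted p under 0.05, beside 3.53% and 2.65% of all genes. With limma 0 of 17 passed over all genes. Slc29a4, a low-affinity transporter that takes up monoamines, read 9.78, 9.48 and 9.54 log2 in Ahr-KO and 9.18, 9.29 and 8.96 in wild type. All Ahr-KO arrays lay above all wild-type arrays. The group means differed by 0.46 ± 0.11 (SE; limma adjusted p = 0.769), and by 0.44 without the arrays with high Ttr. Maoa, the monoamine oxidase that degrades serotonin, read 8.17, 8.14 and 8.30 in Ahr-KO and 8.38, 8.35 and 8.51 in wild type, again without overlap. Its difference was -0.21 ± 0.08 (SE; limma adjusted p = 0.797). Of the 17 genes, 2 had all Ahr-KO arrays above the wild-type arrays (Slc29a4 and Tph2). Another 2 had them all below (Maoa and Tph1). Among all genes, the arrays did not overlap for 11.9%.

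Most listed transcripts of serotonin neurons gave little signal. Tph2, the serotonin-synthesising hydroxylase of neurons, read 5.36, 5.38 and 5.41 in Ahr-KO and 5.35, 5.23 and 5.17 in wild type, a difference of 0.13 ± 0.08 (SE; limma adjusted p = 0.829). Slc6a4, the serotonin transporter, differed by 0.066 ± 0.089 (SE), and by -0.012 without wild-type mouse 3. Both were below the median gene on all 6 arrays, as were 7 of 9 measured raphe genes. The score of these 9 genes was between 0.019 and 0.058 in Ahr-KO and between -0.069 and -0.0025 in wild type. Of the 9, 8 had a higher mean in Ahr-KO, beside 50.7% of all genes. Maob, a monoamine oxidase gene on this list, was above the median gene on all 6 arrays. Tph2, Slc6a4, Slc18a2 and Maob are also among the 17 genes above. Tph1, the hydroxylase of peripheral tissues and pineal gland, differed by -0.14 ± 0.07 and was also below the median gene on every array. Aldh1a1, an aldehyde dehydrogenase, was not among the genes with the lowest p of this list but had its lowest difference. It differed by -0.23 ± 0.15, and by -0.036 without the arrays with high Ttr. The median difference of the 17 genes was 0.0031, with 9 higher and 8 lower means in Ahr-KO.

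Signalling genes downstream of the receptors showed no member past the threshold. Of 32 measured genes for G proteins, cyclases, phospholipases, kinases and channels, 0 passed and 0 had an unadjusted p under 0.05, beside 6.18% of all genes. The mean was higher in Ahr-KO for 18 of the 32, beside 50.7% of all genes, and the median difference was 0.0088 log2. The lowest p values belonged to Prkaca, the catalytic subunit of protein kinase A (0.16 ± 0.07, SE), Adcy8, a calcium-stimulated adenylyl cyclase (-0.26 ± 0.14), Gnal, a stimulatory G protein subunit (0.14 ± 0.08), and the potassium channel gene Kcnn3 (-0.19 ± 0.11, and -0.077 without wild-type mouse 1). Adcy8 read 8.20, 8.60 and 8.22 in Ahr-KO mice 1, 2 and 3 and 8.72, 8.34 and 8.74 in wild-type mice 1, 2 and 3. It was low on the 3 arrays on which Htr4 was high.

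Genes for receptor partners and regulators had lower means in Ahr-KO for 24 of 32, beside 49.3% of all genes. Their median difference was -0.052 log2, and 0 passed over all genes with limma. At an unadjusted p under 0.05, 3 were lower and 0 higher, beside 2.65% lower and 3.53% higher among all genes. The 3 lower ones were Hes5, a Notch-induced repressor (-0.33 ± 0.10, SE), Cops5, a signalosome subunit that binds the Htr6 product (-0.19 ± 0.07), and Ptpn13, a tyrosine phosphatase (-0.19 ± 0.07). Their limma adjusted p was 0.770 to 0.797. Cc2d1a and Deaf1, transcription factors that act on the Htr1a promoter, differed by -0.061 ± 0.093 and 0.14 ± 0.08 (SE). S100a10, which binds the Htr1b and Htr4 products and brings them to the cell surface, differed by -0.046 ± 0.086 (SE). The direction of Cc2d1a turned without wild-type mouse 1 (0.025), and that of S100a10 without Ahr-KO mouse 1 (0.011) and without both arrays with high Ttr (0.049).

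Htr4 and Htr2a had the widest ranges over the 6 arrays among the receptors, 0.54 and 0.53 log2, and the genes with the closest profiles were looked up for them. Likeness was the root mean square difference over the 6 arrays between profiles centred on their own means, among 11089 genes at or above the median level. Closest to Htr4 was Npy2r, a neuropeptide Y receptor, at 0.0147 log2. Npy2r read 9.05, 8.64 and 9.05 in Ahr-KO mice 1, 2 and 3 and 8.61, 9.14 and 8.70 in wild-type mice 1, 2 and 3, so the same 3 arrays were high. Lpl, lipoprotein lipase, followed at 0.0472 and Galnt3, a glycosyltransferase, at 0.0482. Closest to Htr2a were Jakmip1, a microtubule-associated protein (0.0402), the zinc finger gene Zfp692 (0.0444) and Gpsm1, a modulator of G protein signalling (0.0459). These are the closest of many candidates over few arrays, and they are given as a description.

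**Figure D3:**
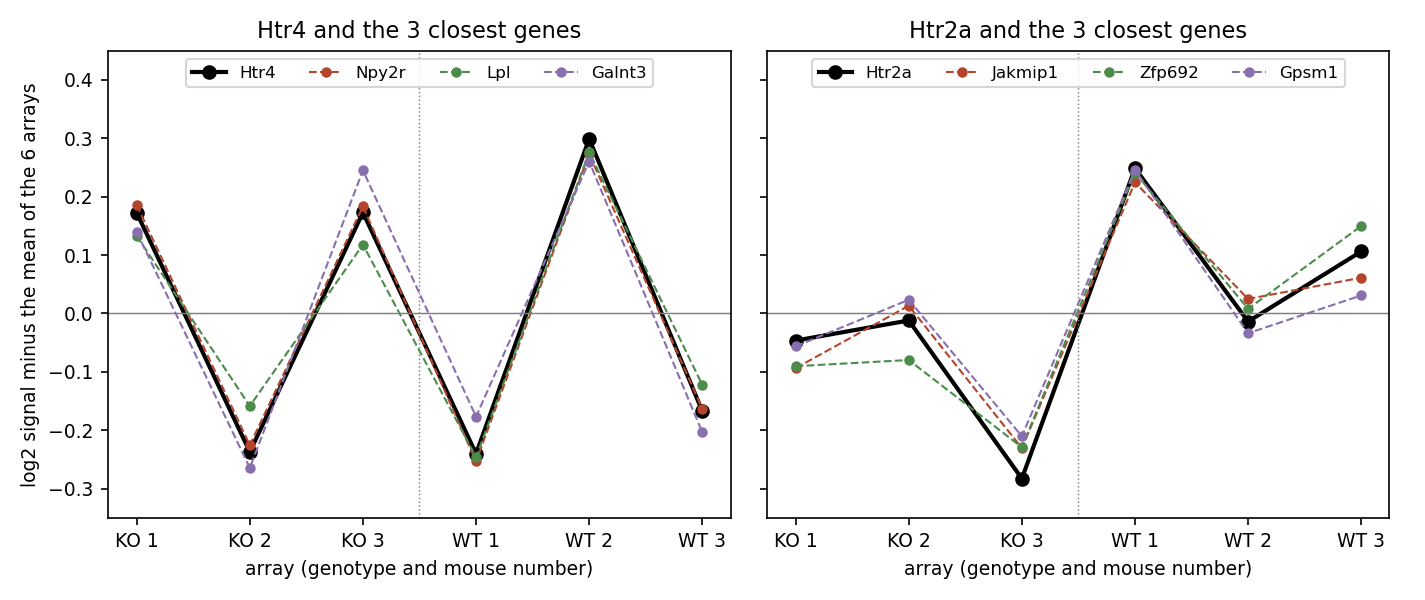
Log2 signal minus the mean of the 6 arrays for Htr4 (left) and Htr2a (right), each with the 3 genes of closest profile, by array; KO is Ahr-KO, WT is wild type, and the number is the mouse. Htr4 and its neighbours are high on Ahr-KO mice 1 and 3 and wild-type mouse 2, which crosses the genotypes, while Htr2a is highest on wild-type mouse 1 and lowest on Ahr-KO mouse 3.

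Scores of regional marker genes are given beside the Htr4 readings. The score over 14 genes of neocortex and subiculum was -0.11, 0.11 and -0.042 in Ahr-KO mice 1, 2 and 3, and 0.11, -0.10 and 0.028 in wild-type mice 1, 2 and 3, so it was below 0 on the 3 arrays with high Htr4 and above 0 on the other 3. Of those 14 genes, 13 were above the median gene on all 6 arrays. The striatal score was -0.042, 0.027 and -0.041 in Ahr-KO mice 1, 2 and 3, and 0.0032, -0.027 and 0.080 in wild-type mice 1, 2 and 3, below 0 on the same 3 arrays. The thalamic and habenular score did not divide the arrays that way, at -0.044, -0.0086 and 0.022 in Ahr-KO mice 1, 2 and 3, and 0.023, -0.042 and 0.050 in wild-type mice 1, 2 and 3. The choroid plexus score was high on 2 of the 3 arrays with high Htr4. The part of the dissection in the Htr4 readings was not tested.

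**Figure D4:**
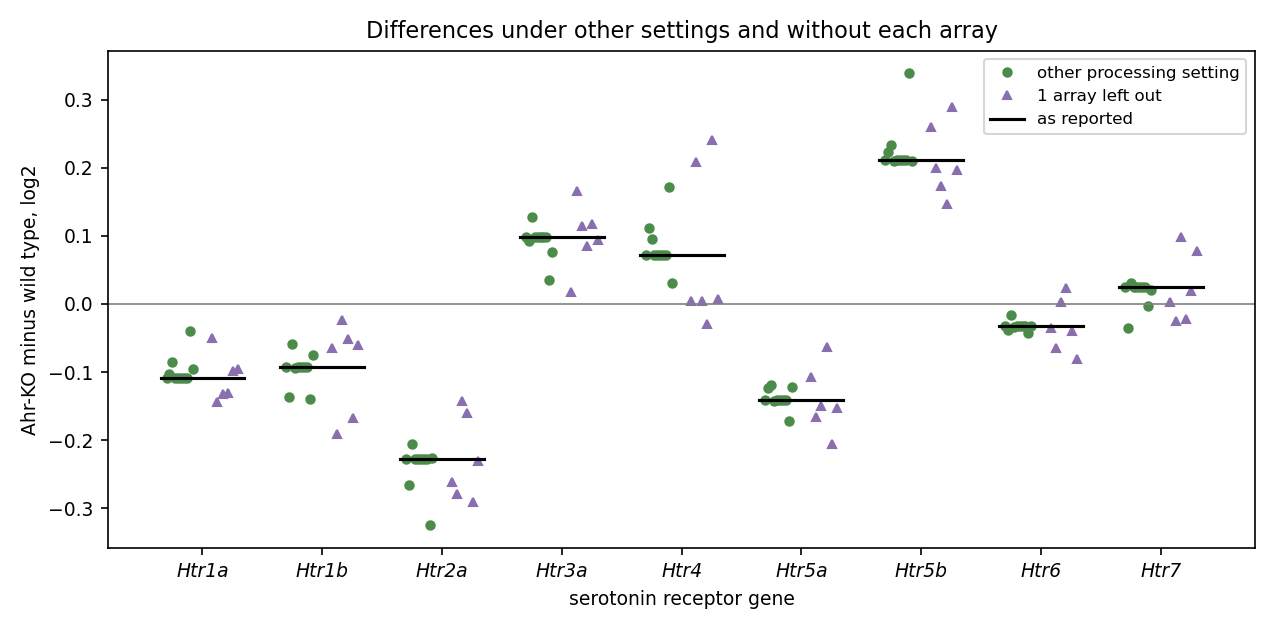
Difference in log2 signal, Ahr-KO minus wild type, of each receptor as reported (black bars), under 10 other processing settings (green circles) and with each array left out (purple triangles). Green circles on the black bar include settings that cannot change the difference. Htr1a, Htr1b, Htr2a and Htr5a stay below 0 and Htr3a and Htr5b above 0 throughout, while Htr4, Htr6 and Htr7 cross 0.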

How the data were processed

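Per the labels' protocols, total RNA of 6 hippocampi (Trizol extraction) was labelled for Affymetrix whole-transcript arrays with a GeneChip WT PLUS kit. The authors deposited a log2 signal for every probe set on every array. Per the submitters' processing notes RMA and Affymetrix Expression Console were used, with no version named. RMA normalizes the arrays together, so differences in total RNA are removed. The build and annotation of the probe sets are not stated in the sources used here, and no scanner values or scan dates were used. The number of arrays limits the precision.

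Of 41345 rows, 23521 had 1 gene symbol, 1814 several and 16010 none. Entrez IDs were used to bring symbols up to date with RefSeq (GRCm38.p6; 23328 rows matched), and the brightest row per gene gave 22180 genes. The 2 genotypes were tested against each other in limma 3.58.1 under R 4.3.3 (lmFit, eBayes, two-sided, Benjamini-Hochberg over all genes, threshold 0.05), without covariates. An exact permutation test of 3 against 3 arrays cannot go below 0.1 and was not run. The labels name a separate mouse for each array. The test was tried on simulated data. The receptors and all lists were chosen with earlier results of these data known, so lists are described by counts and medians, without set tests; 193 of 210 list entries were measured. Named were all receptors, 4 genes with the lowest p per pathway list, 2 per regional list, the 3 closest profiles of the 2 most variable receptors, and a few fixed genes. Aldh1a1, Wfs1, Drd1 and Cux2 were named outside these rules. Mouse numbers were not used as pairs in the test. Deviations of same-numbered mice correlated at -0.153, -0.215 and 0.0524 across genes, and those of differently numbered mice at -0.0894 to 0.229. With 3 mice per genotype these correlations cannot settle whether arrays shared a batch. Alternatives covered the variance model, array weights, normalization, filters, probe set choice, a replicate block, the choroid plexus arrays and leaving out each array. Figures were drawn with matplotlib 3.10.9.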

Additional observations from a re-analysis of the deposited data

How the results depend on the processing

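The 9 receptor differences were recomputed under 16 alternatives, and 137 of the 144 values kept their direction and 0 passed the threshold (limma adjusted p = 0.595 to 0.9995). That count includes settings that could not change a direction. The intensity trend, the median-level filter, both probe set alternatives and the replicate block left every receptor difference as it was. For those settings only the p-values are informative. Without Ahr-KO mouse 1 and wild-type mouse 2, the arrays with high Ttr, the difference of Htr7 was -0.0034, and with array weights -0.035. Leaving out each array gave -0.030 to 0.24 for Htr4, -0.081 to 0.023 for Htr6 and -0.025 to 0.099 for Htr7, with the direction turning as given above. Unadjusted p was under 0.05 in 6 of 16 alternatives for Htr2a (0.0297 to 0.209 over all 16) and in 7 of 16 for Htr5b (0.0120 to 0.178). With a replicate block 0 genes passed, 1122 had an unadjusted p under 0.05 against 1371 without it, and Htr2a had an unadjusted p = 0.0679 by limma; it changed no call.

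With an intensity trend in limma's variance model 2 genes passed across all genes, neither of them among the 9 receptors. Among genes at or above the median level 785 had an unadjusted p under 0.05, with 11090 tested. The same filter left 1 of the 5 other receptors, Htr2c, at 0.37, and 8 of the synthesis, transport and breakdown genes, with a median of -0.13. The median of the 9 receptors ran from -0.065 without Ahr-KO mouse 2 to 0.0023 without Ahr-KO mouse 3, and was -0.061 without wild-type mouse 3.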

Other observations

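Genes of hippocampal excitatory neurons, in which most of these receptors are made, had a higher mean in Ahr-KO for 15 of 19, beside 50.7% of all genes. Their median difference was 0.074 log2, and 0 passed over all genes with limma. At an unadjusted p under 0.05, 3 were higher and 0 lower, beside 3.53% higher and 2.65% lower among all genes. Stxbp6 differed by 0.25 ± 0.07 (SE) and the channel gene Trpc6 by 0.28 ± 0.09. Wfs1, a gene of CA1 neurons picked out after its values were seen as the largest difference of the list in size, differed by -0.37 ± 0.19, and by -0.19 without Ahr-KO mouse 1. The score of the list was -0.014, 0.032 and 0.10 in Ahr-KO mice 1, 2 and 3, and -0.14, 0.058 and -0.041 in wild-type mice 1, 2 and 3. It was lowest on wild-type mouse 1, on which Htr4 and Htr5b were lowest and Htr2a, Htr5a and Htr6 were highest. The part of cell composition in those readings was not tested.

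Marker genes of neighbouring regions were measured because Htr6 and Htr7 are also made in striatum and thalamus. Of 11 striatal genes 0 passed and 1 was lower at an unadjusted p under 0.05, the enkephalin precursor Penk (-0.38 ± 0.11, SE); Gpr6, an orphan receptor, differed by -0.37 ± 0.16, and by -0.20 without wild-type mouse 1. The mean was higher in Ahr-KO for 7 of the 11. Drd1, the dopamine receptor that defines one class of striatal neurons and was picked out after its values were seen, was above the median gene on 1 of 6 arrays. Of 14 thalamic and habenular genes 0 passed and 1 was higher at an unadjusted p under 0.05, the homeobox gene Gbx2 (0.26 ± 0.10), which was below the median gene on all 6 arrays; the nuclear receptor Rora differed by -0.19 ± 0.08. Of the 14 genes of neocortex and subiculum 0 passed and 1 was higher at an unadjusted p under 0.05, the adhesion protein Ntng2 (0.20 ± 0.08), and the nuclear receptor Rorb differed by 0.15 ± 0.09, and by 0.082 without wild-type mouse 2. The mean was lower in Ahr-KO for 8 of these 14, among them Cux2, picked out after its values were seen as the largest in size (-0.27 ± 0.18, and -0.16 without wild-type mouse 1). Of the thalamic and habenular genes 7 had a higher and 7 a lower mean. Median differences of these 3 lists were 0.056, 0.012 and -0.010 log2. Among all genes 3.53% were higher and 2.65% lower at an unadjusted p under 0.05, and 50.7% had a higher mean in Ahr-KO. Of the choroid plexus list, Kl read 9.65, 8.09 and 8.12 in Ahr-KO and 7.84, 9.27 and 7.97 in wild type, and F5 read 7.77, 5.32 and 5.14 in Ahr-KO and 5.17, 6.99 and 5.29 in wild type.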
